A study of Homo sapiens with 6 samples.

Results

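The interferon-stimulated genes described here are 49 protein-coding genes, chosen by symbol from a list of antiviral effectors, GTPases, RNA sensors, STAT and IRF transcription factors, ISG15 pathway enzymes and chemokines, out of 16330 genes in the deposited counts. All 49 have values in both deposited tables, and 47 had enough reads to be tested. The cells are HN12, an established human line of head and neck squamous cell carcinoma. Control cultures (3 libraries) received the solvent DMSO and CPI-613 cultures (3 libraries) the compound CPI-613 for 24 h, all in medium with serum and antibiotics. CPI-613, also named devimistat, resembles lipoate and was designed to inhibit the mitochondrial dehydrogenases that need this cofactor. No interferon, virus or other immune stimulus is named for either group, and all libraries come from 1 line. The dose of CPI-613 is not given in the sources used here, and whether the replicates came from separate cultures is not stated. The p-values therefore reflect only the variation among 6 libraries, and that variation may be technical.

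Type I and type III interferons bind receptors that activate the kinases JAK1 and TYK2, which phosphorylate STAT proteins. STAT2 and IRF9 are subunits of the complex ISGF3, which binds the interferon-stimulated response element (ISRE) in promoters. Interferon gamma acts mainly through gamma-activated sites (GAS) and through IRF1. The induced proteins block virus entry, translation and replication, sense viral RNA, attach the ubiquitin-like protein ISG15 to other proteins, or attract T cells. Many carcinoma lines keep some of these genes on without added interferon.

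The ISRE core was searched as GAAA, 2 bases of any kind and GAAA, and the GAS core as TTC, 3 bases of any kind and GAA, on both strands, in windows from 250 bases before to 50 bases after RefSeq start sites (GRCh38 patch 14). A window was found for 39 members. Of these, 28 held an ISRE core in at least 1 window and 14 a GAS core. By window, 64% of 50 member windows held an ISRE core against 3.57% of all 35116 windows in the table, and 30% against 7.66% held a GAS core. An ISRE core was found in 9 of 11 antiviral effectors, 3 of 3 GTPases, 5 of 6 RNA sensors and 0 of 3 STAT and IRF factors with a window. Among tested members with a window it was found in 7 of 9 that were called lower with CPI-613 and in 20 of 28 that were not called. A match is a run of letters and not a measured binding site, and elements with another spacing, as in OAS1 below, are not counted.

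Among members with a window, those below have the smallest p with an estimate below 0 in each of the effector, GTPase, sensor and transcription factor roles, and they show where these cores lie. GBP2, MX2 and OAS2 had smaller p-values in their roles and no window. Each is printed 5′ to 3′ on the strand of its gene, with the matched cores in capitals.
IFITM1 (chr11:313790-314089, plus strand): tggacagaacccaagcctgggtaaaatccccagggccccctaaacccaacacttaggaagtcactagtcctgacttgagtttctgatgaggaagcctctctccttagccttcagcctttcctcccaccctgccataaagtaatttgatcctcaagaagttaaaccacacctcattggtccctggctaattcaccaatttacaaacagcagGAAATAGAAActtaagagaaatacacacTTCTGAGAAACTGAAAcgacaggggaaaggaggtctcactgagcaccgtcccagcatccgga
GBP1 (chr1:89065159-89065458, minus strand): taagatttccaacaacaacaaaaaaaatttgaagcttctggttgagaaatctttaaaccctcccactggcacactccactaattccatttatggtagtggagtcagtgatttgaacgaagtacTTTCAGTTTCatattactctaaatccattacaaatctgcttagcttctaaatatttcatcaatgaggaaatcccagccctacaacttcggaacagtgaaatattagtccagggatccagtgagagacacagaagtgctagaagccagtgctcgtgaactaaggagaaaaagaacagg
OAS1 (chr12:112906712-112907011, plus strand): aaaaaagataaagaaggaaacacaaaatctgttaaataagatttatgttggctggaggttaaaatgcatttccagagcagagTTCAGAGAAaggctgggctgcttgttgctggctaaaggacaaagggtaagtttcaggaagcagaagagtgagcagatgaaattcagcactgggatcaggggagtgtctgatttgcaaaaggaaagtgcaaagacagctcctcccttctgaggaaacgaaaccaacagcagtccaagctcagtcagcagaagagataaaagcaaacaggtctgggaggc
IRF1 (chr5:132490724-132491023, minus strand): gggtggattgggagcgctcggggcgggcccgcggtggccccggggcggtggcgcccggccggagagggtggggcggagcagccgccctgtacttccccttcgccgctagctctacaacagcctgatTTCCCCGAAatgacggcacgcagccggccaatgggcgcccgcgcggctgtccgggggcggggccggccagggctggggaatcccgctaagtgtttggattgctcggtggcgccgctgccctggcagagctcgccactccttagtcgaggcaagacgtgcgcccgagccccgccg
In IFITM1 the ISRE cores begin at positions -40 and -6 from the start site, and a GAS core begins at -12 and overlaps the second of them. GBP1 has an ISRE core at -127, read on the opposite strand. OAS1 has no match to the ISRE core as searched in this window and a GAS core at -168. Its window does hold gaaacgaaa, a closer spacing that the searched core does not cover. IRF1 has a GAS core at -124.

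With CPI-613, 12 of the 47 tested interferon-stimulated genes fell, 0 rose, and the remaining 35 did not pass the threshold of 0.05 (quasi-likelihood test of edgeR, with Benjamini-Hochberg adjustment over all 12671 tested genes). Over all tested genes 1.24% were called lower and 1.94% higher. The 12 that fell were the effectors RSAD2, CMPK2, IFITM1, TRIM22, IFIT3 and IFIT1, the GTPase GBP2, the ISG15-activating enzyme UBA7, the chemokine CXCL10, and IFI44L, IFI44 and XAF1. The median log2 fold change of the 47 genes was -1.21, against 0.02 over all tested genes. Estimates lay below 0 for 42 of the 47, against 48.2% of all tested genes. In 28 of the 47 every CPI-613 library lay below every Control library, against 9.17% of all genes, and in none did every CPI-613 library lie above, against 11.8%. At an unadjusted p under 0.05, 27 were lower and none higher, against 5.93% of all genes lower. The list had been chosen with earlier results of these data known, so its direction is a description.

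**Figure D1:**
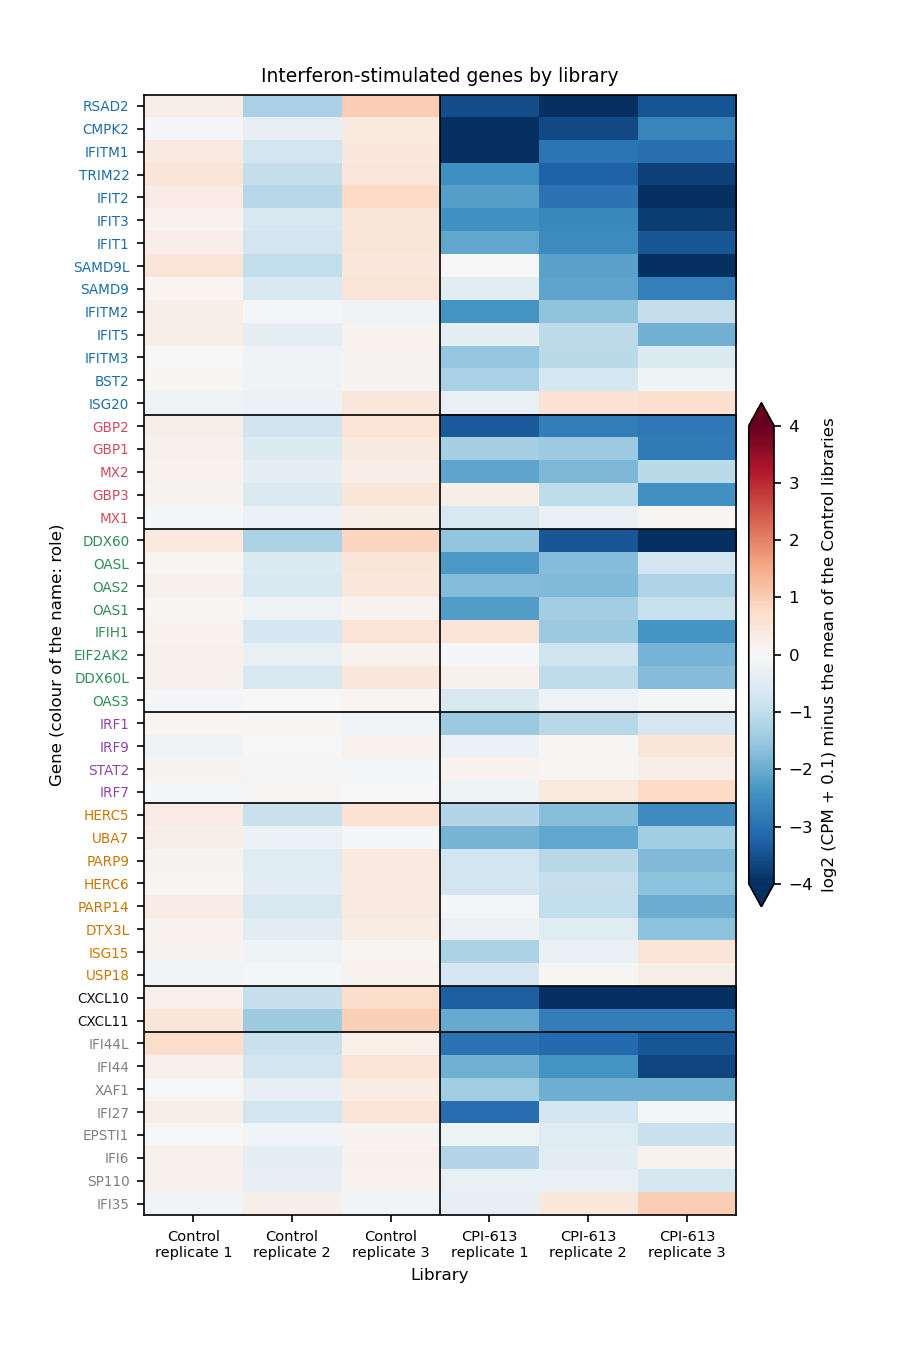
Level of each of the 49 interferon-stimulated genes in each library, as log2 of CPM + 0.1 minus the mean of the 3 Control libraries, with genes grouped and coloured by role and black lines between roles (colour scale ends at -4 and 4). Most cells of the 3 CPI-613 columns are blue, Control replicate 2 is pale blue for most genes, and the STAT and IRF factors other than IRF1 are near white.

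The number of calls turned on single libraries. No member was called by edgeR without Control replicate 1, without Control replicate 3 or without CPI-613 replicate 2, and in these fits 0, 0 and 7 of all tested genes were called in either direction. At an unadjusted p under 0.05, 25, 24 and 26 members were lower there, beside 473, 498 and 536 of all tested genes, and the medians of the members were -1.17, -1.12 and -1.17. Without Control replicate 2, 8 members were among 94 genes called lower. Without CPI-613 replicate 1, 19 members were among 438 genes called lower, and without CPI-613 replicate 3, 20 were among 304. When the dependence of each library on GC content and transcript length was taken out by loess (GC- and length-adjusted), 27 members were called lower and none higher, against 5.37% of all genes lower and 6.23% higher, and these 27 included the 12. In that adjusted fit 16 to 31 members were called lower when any single library was left out, while the number over all genes ran from 254 to 1235. DESeq2 called 25 members lower and none higher, against 3.17% of all genes lower.

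In the deposited length-normalized values (FPKM), which allow genes to be compared with each other, the members spanned a wide range in Control. The entry inhibitor IFITM3, which traps viruses in endosomes, was highest at 1132 ± 133 FPKM (SD, n = 3), followed by ISG15, the ubiquitin-like modifier, at 173 ± 24.1 FPKM and by BST2 (tetherin), which holds budding virus at the cell surface, at 68.4 ± 8.38 FPKM. IFITM3 alone made up 55.7% to 59.4% of the summed FPKM of the 49 members in the Control libraries. Below BST2 came IFI6, IRF1, OAS3 and IFI35 at 48.5, 40.6, 39.7 and 36.4 FPKM, and neighbours among these 4 differed by less than the spread between replicates. Of the 48 steps between neighbours in the whole order, 4 exceeded the summed SDs of both genes: those below IFITM3, ISG15, BST2 and STAT2. In Control, 24 members lay between 10 and 100 FPKM, 20 between 1 and 10, and 3 under 1: SAMD9L, XAF1 and CXCL11. The summed FPKM of all members was 2117, 1650 and 2215 in Control replicates 1 to 3 and 782, 922 and 1158 in CPI-613 replicates 1 to 3, and the groups did not overlap. Without IFITM3 the sums were 936, 669 and 982 against 407, 468 and 562.

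**Figure D2:**
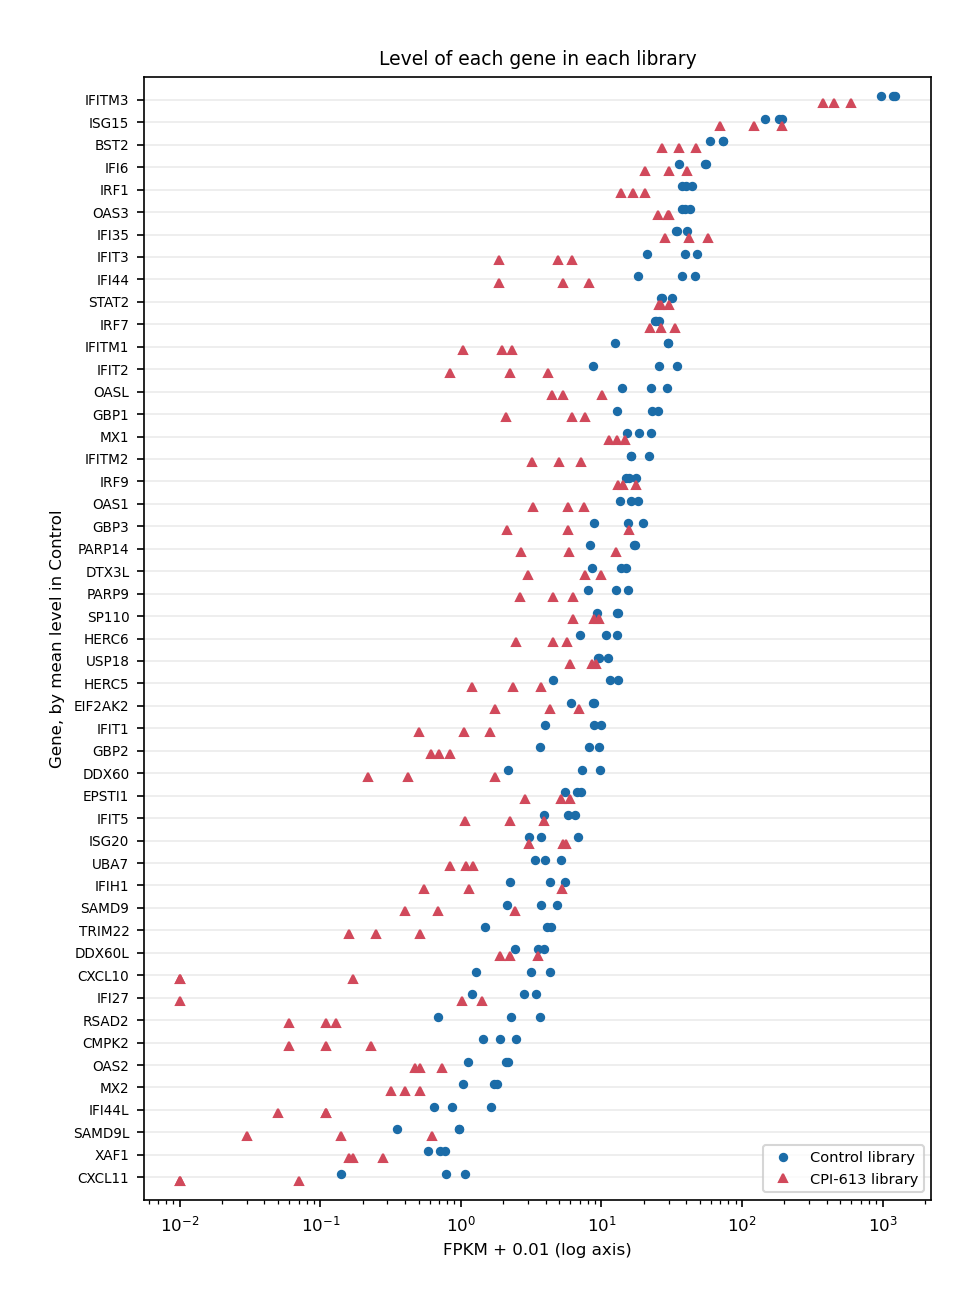
FPKM + 0.01 of each member in each library on a log axis, with genes ordered by their mean in Control, blue circles for the 3 Control and red triangles for the 3 CPI-613 libraries. IFITM3 stands apart at the top in both groups, and symbols of the groups are separate for genes such as GBP2, IFITM1 and TRIM22 and mixed for STAT2, IRF9 and IRF7.

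The labelled cell type was checked against markers. All 10 squamous epithelial markers had counts, with a median of 189 FPKM, and 0 were called by edgeR over all genes. Their summed FPKM was 4796 to 7126 in Control and 2993 to 6476 with CPI-613, with overlap. The basal keratin KRT5 measured 2104, 2021 and 2568 CPM in Control and 459, 874 and 1553 CPM with CPI-613, so every CPI-613 library lay below every Control library. Its log2 fold change was -1.21 (SE 0.42), and with GC and length adjustment it was called lower at -1.53 (SE 0.28; edgeR, Benjamini-Hochberg adjusted p = 0.0143, in a range of 0.00525 to 0.641 for 24 alternatives, 6 of which called it). The desmosomal protein PKP1 had an estimate of -1.33 (SE 0.53) and overlapped between groups. What part these differences have in those of the members was not tested. Of 14 leukocyte markers 6 had counts and 4 were tested, with 0 called. The summed FPKM of the leukocyte markers was 32.1 to 47.4 in Control and 29.1 to 44.6 with CPI-613, with overlap. Most of it was CD68, a lysosomal protein that epithelial cells also make. The defining leukocyte gene PTPRC (CD45) measured at most 0.155 CPM in any library and was at 0 in CPI-613 replicates 2 and 3. Markers of fibroblasts and endothelium summed to 6.77 to 8.54 FPKM in Control and 5.74 to 6.14 FPKM with CPI-613, without overlap and most of it COL1A1. Of 9 listed, 6 had counts and 2, COL1A1 and PDGFRB, were tested, with 0 called. Both overlapped in CPM, with COL1A1 at 36.4, 33.1 and 39.5 against 29.9, 33.1 and 38.8 CPM (log2 fold change -0.10, SE 0.21). In FPKM, COL1A1 did not overlap, at 7.11, 6 and 7.48 against 5.5, 5.45 and 5.7. COL3A1 and CDH5 were at 0 in all CPI-613 libraries, but had only 1, 0 and 3 reads and 9, 6 and 3 reads in Control. PECAM1 had 9, 4 and 4 reads against 0, 2 and 0, and VWF 14, 9 and 9 against 3, 5 and 7, both without overlap. In bulk RNA, fewer cells with these transcripts and less RNA per cell cannot be told apart.

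Among the 14 antiviral effectors 6 fell and 0 rose, and the median estimate was -2.13 on the log2 scale. RSAD2 (viperin) makes a chain-terminating nucleotide that stops viral polymerases. It measured 6.43, 2.10 and 10.8 CPM (read counts scaled to a common library size by TMM factors) in Control replicates 1 to 3 and 0.357, 0.154 and 0.387 CPM in CPI-613 replicates 1 to 3. The lowest Control library, replicate 2, was still above the highest CPI-613 library, and RSAD2 fell by 4.38 (SE 0.72) on the log2 scale (edgeR, Benjamini-Hochberg adjusted p = 0.0253). CMPK2 is a mitochondrial nucleotide kinase that supplies the substrate of viperin and is encoded beside it. Its values were 4.70, 3.88 and 6.42 CPM in Control and 0.143, 0.308 and 0.697 CPM with CPI-613. All CPI-613 libraries lay below 1 CPM, and CMPK2 fell by 3.69 (SE 0.52; edgeR, Benjamini-Hochberg adjusted p = 0.0157). Pooled over the CPI-613 libraries, RSAD2 had only 12 reads and CMPK2 15, against 250 and 194 in Control.

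The IFIT proteins bind foreign RNA ends and block their translation. IFIT3 gave 76.7, 44.6 and 96.2 CPM in Control and 12.7, 11.5 and 4.88 CPM with CPI-613, without overlap, and fell by 2.90 (SE 0.45; edgeR, Benjamini-Hochberg adjusted p = 0.0212). IFIT1, its binding partner, gave 32.5, 15.6 and 37.8 CPM against 6.20, 4.54 and 2.40 CPM and fell by 2.70 (SE 0.48; edgeR, Benjamini-Hochberg adjusted p = 0.0321). In both genes Control replicate 2 was the lowest Control library and CPI-613 replicate 3 the lowest of all. IFIT2 ranged more widely, at 73.7, 26.7 and 101 CPM against 12.6, 7.53 and 3.10 CPM. Its groups did not overlap. The estimate of -3.11 (SE 0.65) had an adjusted p of 0.0559 by edgeR with the Benjamini-Hochberg method, just over the threshold, and the GC- and length-adjusted estimate of -2.95 (SE 0.43) was called. IFIT5, the member of the family that binds RNA as a monomer, measured 18.9 ± 4.13 and 9.28 ± 4.63 CPM, with a log2 fold change of -1.03 (SE 0.41), and was called neither way.

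The IFITM proteins sit in cell and endosomal membranes and hinder virus fusion. IFITM1 measured 11.4, 5.20 and 11.8 CPM in Control and 0.428, 1.08 and 1.01 CPM with CPI-613. No CPI-613 library reached a level near the lowest Control library, and IFITM1 fell by 3.49 (SE 0.49; edgeR, Benjamini-Hochberg adjusted p = 0.0156). IFITM2 gave 15, 12.2 and 11.5 CPM against 2.35, 4.15 and 6.59 CPM, and IFITM3, the most abundant member, 395, 357 and 426 CPM against 133, 186 and 268 CPM. Neither overlapped between groups, and neither was called over all genes, with log2 fold changes of -1.56 (SE 0.40) and -1.0 (SE 0.27). Both were called lower when GC- and length-adjusted, at -1.87 (SE 0.23) and -1.28 (SE 0.18). These 3 genes are close paralogs, and how the authors' counter divided reads common to them is not given in the sources used here.

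TRIM22, a ubiquitin ligase that restricts retroviruses and other viruses, measured 10.5, 3.81 and 10.2 CPM in Control and 1.28, 0.692 and 0.465 CPM with CPI-613. The groups were separate, and TRIM22 fell by 3.30 (SE 0.55; edgeR, Benjamini-Hochberg adjusted p = 0.0267). BST2 measured 48.6 ± 4.43 and 30.7 ± 11.6 CPM and the growth-restraining SAMD9 21.6 ± 7.95 and 7.61 ± 6.55 CPM. Both missed the threshold and were called lower when GC- and length-adjusted, at -0.95 (SE 0.19) and -1.15 (SE 0.21). SAMD9L, the paralog of SAMD9, gave 5.88, 2.02 and 5.65 CPM against 4.06, 0.846 and 0.155 CPM, so CPI-613 replicate 1 lay within the Control range and replicate 3 far below it. ISG20, a 3′ exonuclease, was the 1 effector with an estimate above 0 (log2 fold change 0.34, SE 0.36, 95% interval -0.52 to 1.19).

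**Figure D3:**
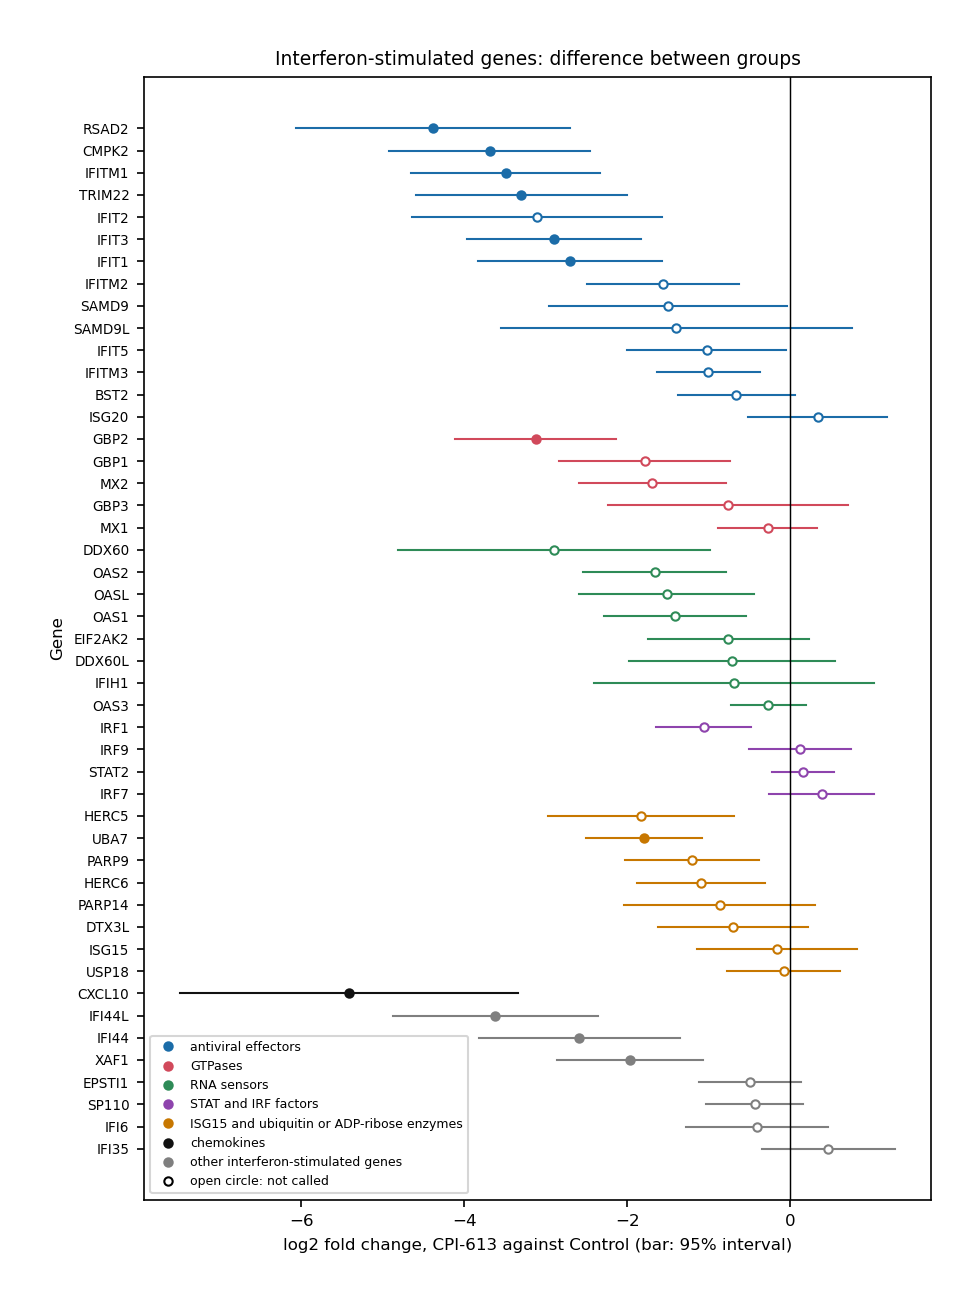
Log2 fold change of CPI-613 against Control for the 47 tested members, grouped by role, with 95% intervals as bars, filled circles for the 12 genes called at an adjusted p under 0.05 and open circles for the 35 not called. The filled circles lie between -5.42 (CXCL10) and -1.79 (UBA7), and IRF7, STAT2, IRF9, IFI35 and ISG20 are the genes with estimates above 0.

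Of the 5 GTPases 1 fell, and the median estimate was -1.69 on the log2 scale. GBP2, which coats bacteria and damaged vacuoles in interferon-treated cells, measured 28.3, 13.7 and 34.6 CPM in Control and 2.21, 3.38 and 3.18 CPM with CPI-613. Every CPI-613 library was below every Control library, and GBP2 fell by 3.12 (SE 0.42; edgeR, Benjamini-Hochberg adjusted p = 0.0133). GBP1, a paralog that starts the same coat, gave 54.9, 32.8 and 62.0 CPM against 19.3, 17.5 and 6.66 CPM and was not called (log2 fold change -1.79, SE 0.45). GBP3 gave 38.4, 23.7 and 50.3 CPM against 41.9, 17.8 and 6.59 CPM, and the groups overlapped because CPI-613 replicate 1 was as high as Control. The 2 dynamin-like GTPases differed in level. MX1, which traps viral nucleoproteins, gave 43.7, 38.3 and 54.5 CPM against 28.9, 36.9 and 46.6 CPM with overlap, and MX2, which restricts HIV at the nuclear pore, gave 4.08, 2.80 and 4.43 CPM against 0.784, 0.999 and 1.70 CPM without overlap. MX2 missed the threshold at -1.69 (SE 0.38; edgeR, Benjamini-Hochberg adjusted p = 0.0706), while MX1 had an estimate of -0.28 (SE 0.26, 95% interval -0.88 to 0.32). Whether MX1 and MX2 differed in their response was not tested.

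None of the 8 RNA sensors was called by edgeR over all genes (4 lower at an unadjusted p under 0.05 and 4 by DESeq2), and their median estimate was -1.09 on the log2 scale. The oligoadenylate synthetases make the second messenger that activates RNase L. OAS1 gave 24.1, 20.5 and 26.0 CPM in Control and 4.92, 8.84 and 12.7 CPM with CPI-613, and OAS2 gave 5.80, 3.34 and 7.18 CPM against 1.5, 1.46 and 2.17 CPM. In both the groups were separate, with log2 fold changes of -1.42 (SE 0.37) and -1.67 (SE 0.37). OASL, an inactive relative that enhances RIG-I signalling, gave 35.8, 23.3 and 47.6 CPM against 6.92, 10.1 and 20.1 CPM, also without overlap (log2 fold change -1.52, SE 0.46). OAS3, the main activator of RNase L, was the most abundant sensor at 224, 231 and 251 CPM against 154, 206 and 225 CPM. The groups met between the highest CPI-613 and the lowest Control library, with an estimate of -0.27 (SE 0.20, 95% interval -0.73 to 0.19).

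The helicases that detect viral RNA varied widely between libraries. DDX60, a helicase linked to RIG-I signalling, measured 38.1, 11.9 and 52.5 CPM in Control and 9.55, 2.61 and 1.47 CPM with CPI-613. Control replicate 2 came close to CPI-613 replicate 1, and the estimate of -2.90 had an SE of 0.81. IFIH1 (MDA5), the sensor of long double-stranded RNA, gave 12.9, 7.22 and 17.0 CPM against 16.7, 4.07 and 2.17 CPM, so CPI-613 replicate 1 lay at the top of the Control range and the other 2 CPI-613 libraries below it. DDX60L and EIF2AK2, the kinase PKR that shuts off translation, overlapped in the same way, at 11.7 ± 4.25 and 7.11 ± 4.90 CPM and at 69.9 ± 12.1 and 41.2 ± 23.0 CPM. When GC- and length-adjusted, DDX60, OAS1, OAS2 and OASL were called lower and IFIH1, DDX60L, EIF2AK2 and OAS3 were not.

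The STAT and IRF factors stood at moderate levels, and none of the 4 was called over all genes (edgeR; 1 lower at an unadjusted p under 0.05 and 1 by DESeq2, IRF1 both times). STAT2, the subunit of ISGF3 that carries its activation domain, measured 123, 107 and 108 CPM in Control and 123, 118 and 134 CPM with CPI-613. The groups overlapped, and the log2 fold change was 0.15 (SE 0.16, 95% interval -0.23 to 0.53). IRF9, the DNA-binding subunit of ISGF3, gave 18.7, 21.2 and 22.9 CPM against 17.5, 21.4 and 29.3 CPM (log2 fold change 0.12, SE 0.27, 95% interval -0.51 to 0.74). Both signs flip with another scaling: by library size only, which moves the median of all genes from 0.02 to -0.17, STAT2 was at -0.05 and IRF9 at -0.10, both above that median. IRF7, which drives interferon alpha genes, gave 32.8, 34.8 and 33.8 CPM against 29.9, 43.9 and 58.6 CPM, with CPI-613 libraries on both sides of Control (log2 fold change 0.38, 95% interval -0.26 to 1.03).

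IRF1, which acts in the interferon gamma response and keeps basal expression of antiviral genes, behaved otherwise. It measured 87.4, 85.0 and 76.5 CPM in Control and 29.4, 38.0 and 51.5 CPM with CPI-613. The 3 CPI-613 libraries lay below the 3 Control libraries, and the estimate of -1.07 (SE 0.25) was not called (edgeR, Benjamini-Hochberg adjusted p = 0.0758). With GC and length adjustment the estimate was -1.24 (SE 0.14), called at an adjusted p of 0.00221 by the same test. Its adjusted p ran from 0.00156 to 0.352 across 24 alternatives. IRF1 was called lower in 14 of 24 alternatives. Whether IRF1 differed from the other 3 factors in its response was not tested.

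Among 8 genes of ISG15 conjugation and related ubiquitin or ADP-ribose enzymes 1 fell, and the median estimate was -0.98 on the log2 scale. UBA7, the enzyme that activates ISG15, measured 14.2, 10.0 and 11.3 CPM in Control and 3.14, 2.69 and 4.42 CPM with CPI-613. The groups were far apart for their spread, and UBA7 fell by 1.79 (SE 0.30; edgeR, Benjamini-Hochberg adjusted p = 0.0275). ISG15 itself gave 68.4, 56.8 and 67.7 CPM against 26.4, 53.5 and 92.3 CPM, a spread among the CPI-613 libraries that covered all Control libraries (log2 fold change -0.16, SE 0.42, 95% interval -1.15 to 0.82). USP18, the protease that removes ISG15 and damps the interferon receptor, measured 15.6 ± 1.35 and 14.8 ± 4.5 CPM (95% interval of the log2 fold change -0.78 to 0.62).

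HERC5, the ligase that attaches ISG15, gave 33.8, 14.4 and 39.6 CPM against 11.8, 8.23 and 4.65 CPM, and its paralog HERC6 gave 34.3, 23.7 and 42.1 CPM against 19.2, 17.1 and 10.4 CPM. Neither overlapped between groups, and neither was called (log2 fold changes -1.83, SE 0.49, and -1.10, SE 0.33). PARP9, which acts with the ubiquitin ligase DTX3L, gave 39.7, 26.3 and 49.0 CPM against 21.8, 17.1 and 10.8 CPM, also without overlap. DTX3L and the ADP-ribosyltransferase PARP14 overlapped, at 63.8 ± 16 and 39.1 ± 17.2 CPM and at 98.1 ± 33.4 and 53.8 ± 33.9 CPM. HERC5, HERC6 and PARP9 were called lower when GC- and length-adjusted.

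The chemokines CXCL10 and CXCL11, which attract T cells through CXCR3, were near the limit of detection with CPI-613. CXCL10 had 34, 15 and 49 reads in Control and 2, 0 and 0 reads with CPI-613. Pooled over each group, its level was 50.5 times as high in Control (95% counting interval 13.6 to 423), and it was called lower (edgeR, Benjamini-Hochberg adjusted p = 0.0252). CXCL11 had 11, 2 and 16 reads against 1, 0 and 0 reads and did not pass the count filter. Its pooled ratio was 29.9 (95% counting interval 4.96 to 1221). These intervals cover counting error only, and the fitted log2 fold change of CXCL10, -5.42, depends on the prior count.

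Of the other 8 members 3 fell, 4 did not pass and 1 was not tested, and the median estimate over the 7 tested was -0.50 on the log2 scale. IFI44L gave 5.64, 1.79 and 3.97 CPM in Control and 0.357, 0.308 and 0.232 CPM with CPI-613, and its neighbour IFI44 gave 49.4, 26.3 and 63.5 CPM against 11.5, 8.23 and 3.33 CPM. Both are cytoplasmic proteins linked to interferon responses, both were separate between groups, and they fell by 3.62 (SE 0.53) and 2.59 (SE 0.52; edgeR, Benjamini-Hochberg adjusted p = 0.0175 and 0.0486). The call of IFI44 is close to the threshold and held in 15 of 24 alternatives. XAF1, which counters the caspase inhibitor XIAP, gave 1.49, 1.16 and 1.83 CPM against 0.499, 0.308 and 0.310 CPM and fell by 1.97 (SE 0.38; edgeR, Benjamini-Hochberg adjusted p = 0.0428). The call of XAF1 is also close to the threshold and held in 14 of 24 alternatives. Pooled over the CPI-613 libraries, IFI44L had only 12 reads and XAF1 15, against 147 and 58 in Control.

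EPSTI1, an interferon response protein of epithelial and stromal cells, measured 14.4 ± 1.15 and 10.2 ± 2.40 CPM and the nuclear body protein SP110 24.5 ± 4.55 and 18.1 ± 2.75 CPM, and neither was called. IFI6, a small membrane protein that limits flavivirus replication, gave 29, 19.9 and 29.2 CPM against 11.3, 18.9 and 28.5 CPM, so CPI-613 replicate 3 reached the Control level. IFI35 had the highest estimate of all members, 0.47 (SE 0.35, 95% interval -0.35 to 1.29), with 29.6, 37.5 and 30.0 CPM in Control and 25.7, 42.9 and 65.6 CPM with CPI-613. IFI27 had 11, 5 and 14 reads in Control and 0, 5 and 9 with CPI-613, and was not tested.

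Members that lie side by side in the genome did not all have like estimates. Of the 49 members 29 fall into 12 groups with gaps under 100 kb (RefSeq coordinates, GRCh38). On chromosome 10, IFIT2 (89302046 to 89309271), IFIT3 (89327997 to 89340968) and IFIT1 (89392623 to 89406487) had log2 fold changes between -3.11 and -2.70, and IFIT5 (89414568 to 89420997) had -1.03. On chromosome 1, GBP2 (89106132 to 89126114) had -3.12, GBP1 (89052319 to 89065208) -1.79 and GBP3 (89006680 to 89022866) -0.76. On chromosome 12, OAS3 (112938474 to 112973251) lies between OAS1 (112906962 to 112933219) and OAS2 (112978519 to 113011723), and its estimate of -0.27 was nearer 0 than -1.42 and -1.67. On chromosome 11, IFITM1 (314040 to 315272) lies between IFITM2 (307816 to 309395) and IFITM3 (319676 to 320860), with -3.49 between -1.56 and -1.0. These differences between neighbours were not tested.

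On chromosome 2, CMPK2 (6840553 to 6866635) and RSAD2 (6865885 to 6898239) overlap at their start sites, and both fell. IFI44L (78620448 to 78646145) and IFI44 (78649789 to 78664078) on chromosome 1 both fell as well. On chromosome 3, PARP9 (122527924 to 122564784) and DTX3L (122564338 to 122575203) overlap at their starts, with estimates of -1.21 and -0.71. Whether the authors counted by strand is not given in the sources used here, so reads from the overlapping stretches of these pairs cannot be told apart. The other called members lie alone or beside an uncalled one: UBA7 on chromosome 3 (49805209 to 49813953), TRIM22 on chromosome 11 (5689790 to 5710863), XAF1 on chromosome 17 (6755447 to 6775647) and CXCL10 on chromosome 4 (76021118 to 76023497), next to CXCL11.

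The members shared a library pattern within each group. Among the 47 tested members Control replicate 2 was the lowest Control library for 40 and Control replicate 3 the highest for 34, and the median member lay at -0.44 (log2) from the Control mean in replicate 2 and at 0.36 in replicate 3. With CPI-613 the medians were -1.28, -1.40 and -1.74 in replicates 1 to 3, and 43, 41 and 38 of 47 members lay below the Control mean. The order of the CPI-613 libraries went with the GC content of the transcripts for most members. In 22 members replicate 1 was highest and replicate 3 lowest, and these had a GC content of 36.0% to 47.8%. In 17 members replicate 3 was highest and replicate 1 lowest, and these had a GC content of 48.2% to 66.8%. The remaining 8 members followed neither order. Of the 12 called members, 5 were in the first set and 1 in the second. Across the 47 genes, which share all libraries, the difference between CPI-613 replicates 3 and 1 correlated with GC content (Pearson's r = 0.809, a description). The order was not particular to the members. Among the squamous markers, TP63, EPCAM and DSG3 (42.4% to 47.0% GC) were lower in CPI-613 replicate 3 than in replicate 1. KRT5, KRT14, KRT6A, KRT17, CDH1, SFN and PKP1 (48.6% to 62.8% GC) were higher there. How many of all genes followed these library orders, or lay below the Control mean in each library, was not counted. Whether those counts are particular to the members is therefore not known.

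**Figure D4:**
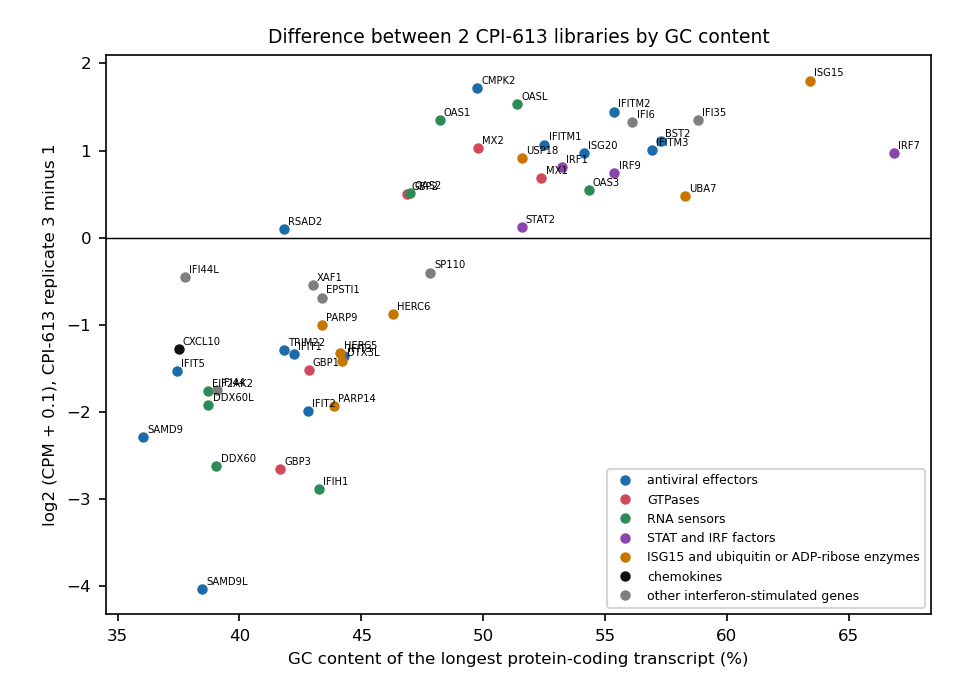
GC content of the longest protein-coding transcript of each tested member (horizontal) against the difference in log2 of CPM + 0.1 between CPI-613 replicate 3 and CPI-613 replicate 1 (vertical), coloured by role. Members up to 47.8% GC include those lowest in replicate 3, such as SAMD9L, IFIH1 and GBP3, and all members above 48.2% lie above 0.

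GC content also went along with the estimates themselves (r = 0.499 over the 47 genes), and the 12 called members had a median GC content of 42.6% against 47.8% for the 35 not called. The median log2 fold change of the members was -1.21 before and -1.23 after adjustment for GC content and length. The standard error after adjustment was 0.14 in place of 0.25 for IRF1 and 0.25 in place of 0.48 for IFIT1. What part GC content has in the difference between the groups was not tested.

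Of 65 listed genes of the interferon pathway outside the members, 47 had counts, 41 were tested and 0 were called over all genes (edgeR; 2 lower and 1 higher at an unadjusted p under 0.05, and 1 lower and 1 higher by DESeq2). Their median estimate was -0.08 on the log2 scale. Over all 12671 tested genes, 752 were lower and 1071 higher at an unadjusted p under 0.05, and 402 and 491 by DESeq2. Every CPI-613 library lay below every Control library in 4 of the 41 and above in 1, against 9.17% and 11.8% of all genes. Among the ligands, IFNB1 had 2, 0 and 3 reads in Control and 3, 3 and 5 reads with CPI-613, and IFNA5 and IFNL1 each had 1 read, in a Control library. IFNE, an epithelial type I interferon, had 27, 17 and 46 reads against 115, 29 and 18 reads, with CPI-613 replicate 1 above and the others within the Control range (95% interval of the log2 fold change -0.87 to 2.41). The other 17 interferon genes listed had no entry in the summed counts and could not be tested.

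The type I receptor chains overlapped between groups. IFNAR1 gave 42.7, 25.5 and 50.3 CPM against 53.8, 32.7 and 13.0 CPM (95% interval of the log2 fold change -1.44 to 0.94), and IFNAR2 46.6, 38.6 and 46.1 CPM against 37.4, 40.7 and 39.1 CPM (95% interval -0.61 to 0.29). Among the receptor kinases JAK1 gave 108, 67.6 and 121 CPM against 167, 135 and 58.6 CPM and TYK2 169.8, 207 and 171 CPM against 192, 217 and 251 CPM, both with overlap (95% intervals -0.67 to 1.23 and -0.17 to 0.70). IFNGR1, the ligand-binding chain of the interferon gamma receptor, gave 117, 76.3 and 128 CPM against 74.0, 58.0 and 26.0 CPM, with all CPI-613 libraries below Control, and is named here after its values were seen.

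**Figure D5:**
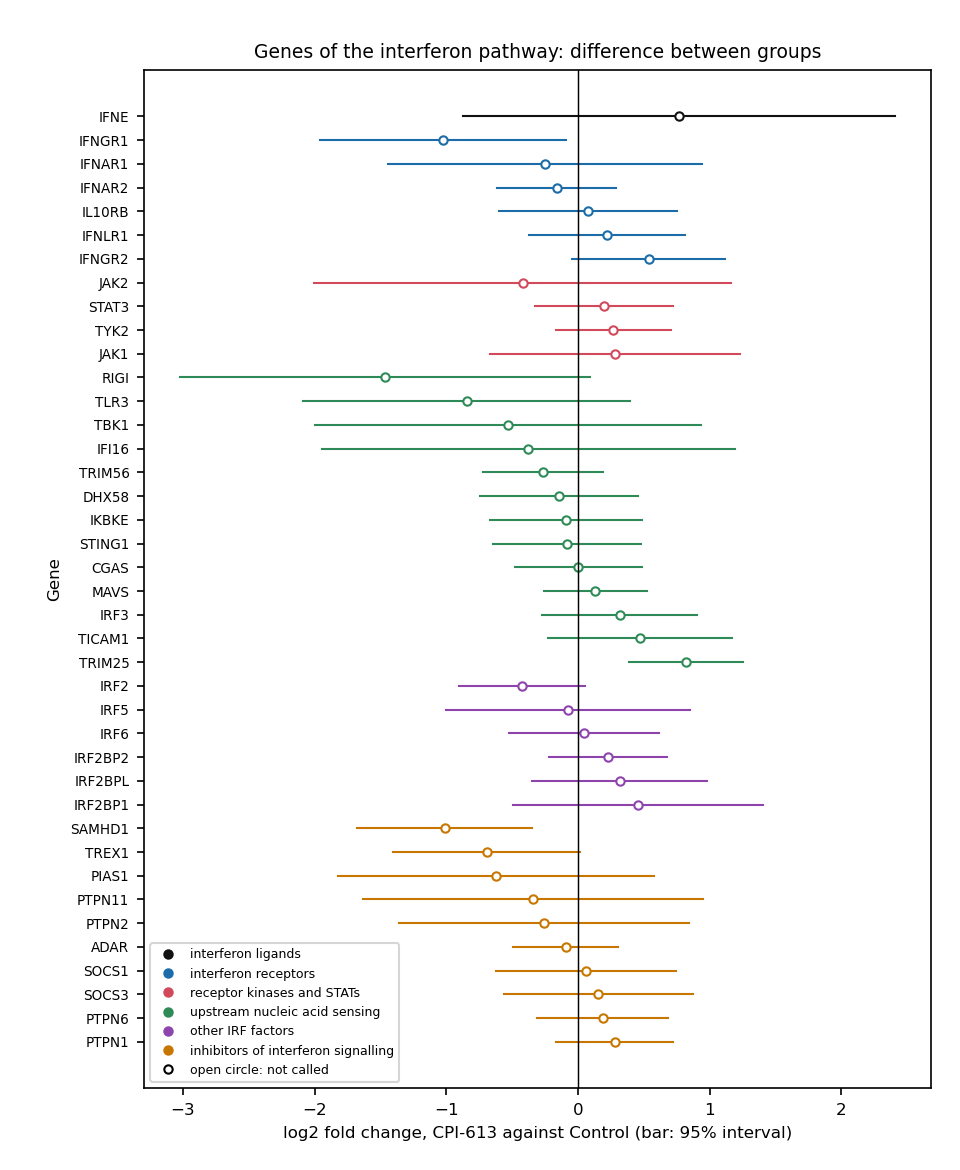
Log2 fold change of CPI-613 against Control for tested pathway genes outside the members, grouped by role, with 95% intervals as bars; all circles are open because none was called. The estimates lie between -1.47 (RIGI) and 0.82 (TRIM25), and those of the receptors and kinases lie on both sides of 0.

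The pathway genes named next were chosen after their values were seen. Upstream of interferon, RIGI, the sensor of short double-stranded RNA with a triphosphate end and itself interferon-induced, gave 53.3, 26.3 and 70.8 CPM against 35.4, 13.0 and 5.89 CPM (log2 fold change -1.47, SE 0.66). TRIM25, a ubiquitin ligase that activates RIG-I, was higher in every CPI-613 library, at 196, 244 and 197 CPM against 334, 370 and 422 CPM, with an estimate of 0.82 (SE 0.18; edgeR, Benjamini-Hochberg adjusted p = 0.0692). The nuclease SAMHD1, which lowers nucleotide pools, gave 30.3, 24.7 and 33.8 CPM against 18.2, 15.2 and 10.6 CPM. When GC- and length-adjusted, IFNGR1, RIGI, SAMHD1 and the DNA exonuclease TREX1 were called lower and TRIM25 higher. These are 4 lower and 1 higher of 41 tested, beside 5.37% of all genes lower and 6.23% higher with that adjustment. The median of all 41 tested pathway genes was then -0.09.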

How the data were processed

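RNA of HN12 cells was measured by RNA-seq in 3 Control and 3 CPI-613 libraries, made with TRIzol extraction and a NEBNext kit per the labels' protocols. The authors deposited a table of estimated counts per transcript and a table of length-normalized values per gene symbol, with no unit named. The second was taken as FPKM as deposited, since in 1459 genes with 1 transcript its ratio to the counts followed the inverse library total within 0.46%. Per the submitters' processing notes, hg38, STAR 2.5, CASAVA, DESeq2, edgeR 3.16.5 and HTSeq were used, in roles not given there. For the step that made fractional counts, the annotation and the use of strand, the entry is: not given in the sources used here.

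Counts of 79031 transcripts were summed to 16330 genes and rounded. 27 transcripts whose value in CPI-613 replicate 1 had become a day and month were left out, none of them from a member, and 53 rows without a symbol held 0.016% of the counts. Library totals ran from 11531949 to 15486514. Genes passing edgeR's filter (minimum count 10, total 15) entered the quasi-likelihood test with TMM scaling, Benjamini-Hochberg adjustment and a threshold of 0.05 (R 4.3.3, edgeR 4.0.16), giving 246 genes higher and 157 lower. Alternatives used limma 3.58.1, DESeq2 1.42.0, other scalings and filters, log2 FPKM with a pseudocount of 0.1 or 1, and loess (span 0.3) on GC content and length for the 12600 tested genes found in GENCODE 29. Scripts were tested on simulated data. Every member may be named. Values of every library were given for called members, the most abundant member of each role and the STAT and IRF factors, and of the pathway IFNAR1, IFNAR2, JAK1 and TYK2 were named whatever their result. 1 listed pathway gene is not reported here. The members and lists were chosen with earlier results of these data known.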

Additional observations from a re-analysis of the deposited data

How the results depend on the processing

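All numbers of calls rest on 3 libraries a group, and RSAD2, CMPK2, CXCL10, CXCL11, IFI27, IFI44L and XAF1 on few reads. Over all genes 157 were called lower and 246 higher; with library size only 259 were lower, with DESeq2 402 lower and 491 higher, with GC and length adjustment 680 and 789, and with FPKM and a pseudocount of 0.1 or 1, 271 and 290 lower. Members called lower numbered 25 by DESeq2 and 27 with GC and length adjustment, against 12, and 17, 11 or 12 under the other scalings and filters. With FPKM and a pseudocount of 0.1 or 1 they numbered 15 and 16, and by limma on the counts 12. Pathway genes, 0 in either direction, numbered 1 lower and 1 higher by DESeq2, 4 lower and 1 higher with GC and length adjustment, and 1 higher with library size only and with either FPKM pseudocount. The cause was not tested.

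The replicate numbers appear in both groups. Deviations from the group means correlated at 0.457, -0.096 and -0.608 between libraries numbered 1, 2 and 3. Control replicate 1 correlated best with its own number, and Control replicates 2 and 3 with CPI-613 replicates 3 and 1 (0.675 and 0.602). Deviations within a group of 3 cancel, so these values cannot decide whether the numbers mark pairs. With the replicate block 82 genes were lower and 109 higher, 8 of them members; with the block and GC and length adjustment 387 were lower and 434 higher, 25 members were lower, and 2 pathway genes were lower and 1 higher.

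Leaving out 1 library at a time, with or without GC and length adjustment, gave 0 to 1235 genes lower, 0 to 1370 higher, 0 to 31 members lower, 0 to 4 pathway genes lower, 0 to 2 higher, and 0 to 7 roles with a called member. Fewer samples enter these fits. Without adjustment the members ran from 0 to 20, and with it from 16 to 31.

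The sign turned for 8 named genes, none of them called. Library size only moved the median of all genes to -0.17, and FPKM with a pseudocount of 0.1 or 1 to -0.20 and -0.15, from 0.02; the values of STAT2, IRF9 and JAK1 under these scalings all lie above those medians. STAT2 was -0.047 with library size only and -0.058 and -0.056 with FPKM, and ran from -0.058 to 0.21 with 1 library left out. IRF9 was -0.10 with library size only, -0.11 with GC and length adjustment, -0.10 with the block added to it, and -0.11 and -0.10 with FPKM, and ran from -0.21 to 0.28. JAK1 was -0.0057 with FPKM and a pseudocount of 0.1 and ran from -0.026 to 0.62. With 1 library left out ISG20 ran from -0.12 to 0.60, IRF7 from -0.029 to 0.61, ISG15 from -0.78 to 0.19, USP18 from -0.37 to 0.15 and IFNAR1 from -0.78 to 0.13.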
